A study of Mus musculus with 8 samples.

Results

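Colon epithelial cells of untreated SMS2-knockout mice were compared with those of untreated wild-type mice on 4 of the 8 arrays of the study, 2 per genotype. The groups were taken from the sample labels, which name the genotype and the treatment of each array. All mice carried the C57BL/6J background and were fed ad libitum. The other 4 arrays came from mice of both genotypes that drank water with 3.5% dextran sulfate sodium (DSS, which injures the colon lining) for 2 days; those arrays entered the fit only through its estimate of the spread and are quoted below as a second set of values. The labels call the arrays of a group biological replicates without saying whether each was 1 mouse or a pool, whether the knockout mice were littermates of the controls, which part of the gene was deleted, or how old the mice were. P-values therefore measure the spread between these samples only. The table gave 19505 genes, of which 13003 were bright enough to be tested.

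SMS2, made from the gene Sgms2, is a sphingomyelin synthase. It moves the phosphocholine head of phosphatidylcholine onto ceramide, giving sphingomyelin and diacylglycerol, and it sits largely at the plasma membrane, whereas the related enzyme SMS1 works mainly in the Golgi. Sphingomyelin packs with cholesterol in the outer leaflet of the membrane. Sphingomyelinases and ceramidases take it apart again to ceramide and sphingosine, and sphingosine-1-phosphate is made from sphingosine. The colon epithelium in which these enzymes were measured is a single cell layer of absorptive colonocytes, goblet cells, enteroendocrine cells and dividing crypt cells. It lies on a lamina propria of fibroblasts, vessels, nerves and immune cells, and beneath that on smooth muscle.

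The defining markers of the labelled cell type were present. Epcam, Cdh1, Krt8, Cdx2, the chloride exchanger Slc26a3, the carbonic anhydrase Car1 and the mucin Muc2 were bright on all 4 untreated arrays, and the mean of 12 epithelial genes was 15.63 and 15.53 (log2 signal) in wild type and 15.43 and 15.50 in the knockout. Muscle and stromal markers were bright too, with Acta2 between 14.04 and 16.06 and Dcn between 11.38 and 14.13, so the preparations did not hold epithelial RNA alone. Background was taken as the 75th percentile of the negative-control probes, 6.07 to 6.20 on these arrays. Replicates correlated with r = 0.992 in each genotype, and 121 genes in wild type and 130 in the knockout lay over 1 log2 unit apart between replicates. Y-linked transcripts did not separate the genotypes: none of the 4 tested (Eif2s3y, Uty, Kdm5d and Usp9y) was over background on any untreated array. On the DSS arrays the mean of those 4 genes was 8.11 to 8.80, so DSS and the sex of the mice cannot be told apart in any step from untreated to DSS arrays.

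Sgms2 itself had log2 signals of 10.79 and 10.76 in wild type and 7.30 and 7.33 in the knockout. It was lower by -3.46 ± 0.29 (log2 difference ± SE; adjusted p = 0.00137), a 10.99-fold lower signal that was still above background. All adjusted p-values here come from limma with Benjamini-Hochberg adjustment over the 13003 genes. The SMS1 gene Sgms1 was 8.35 and 8.27 in wild type and 8.86 and 9.07 in the knockout, and its difference of 0.66 ± 0.23 did not pass (adjusted p = 0.481). Samd8, which makes the related lipid ceramide phosphoethanolamine, had a difference of -0.70 ± 0.25 that also did not pass (adjusted p = 0.498).

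Beyond Sgms2, no gene of sphingolipid metabolism passed the threshold of 0.05. Of 44 tested genes on this list, 1 passed (0.392% of all genes did), and 6 had an unadjusted p under 0.05 with limma (822 of 13003 over all genes). The median difference was -0.06 against -0.03 over all genes. The values nearest the threshold belonged to ceramidases, which cut the fatty acid from ceramide. The lysosomal acid ceramidase gene Asah1 had signals of 14.60 and 15.06 in wild type and 13.50 and 13.50 in the knockout, a difference of -1.33 ± 0.27 (adjusted p = 0.0740). The neutral ceramidase gene Asah2 had 9.08 and 8.67 in wild type and 7.89 and 7.61 in the knockout, a difference of -1.12 ± 0.25 (adjusted p = 0.115). In both genes the knockout arrays lay under both wild-type arrays (20.6% of all genes did). The DSS arrays gave a like size, -1.16 for Asah1 and -1.07 for Asah2. The alkaline ceramidases Acer1, Acer2 and Acer3 had differences of -0.52, 0.25 and 0.40. Sphingomyelinases stayed close to 0: Smpd1, Smpd2, Smpd3, Smpd4 and Smpdl3a lay between -0.06 and 0.20, and Smpdl3b was at -0.57. De novo synthesis, from serine palmitoyltransferase to the ceramide synthases, ranged from -0.40 (Degs2) to 0.62 (Cers5) over 12 genes. Among ceramide carriers and kinases, Cert1 was at -0.32 and Cerk at -0.45, and the glucosylceramide synthase gene Ugcg was at 0.15. The sphingosine-1-phosphate receptor gene S1pr1, a vessel and lymphocyte gene, was under background in wild type (5.76 and 5.82) and just over it in the knockout (6.39 and 6.47).

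Over all genes, 51 differed between the genotypes (0.392% of those tested). 44 were higher in the knockout (0.338%) and 7 were lower (0.0538%). The higher genes included the peptidase gene Mme, the metallothionein gene Mt2, the clock output gene Dbp, the lipid carrier gene Apoe, the water channel gene Aqp8, and 11 members of the lists of muscle, fibroblast, subepithelial, pericyte and endothelial genes. The lower ones were Sgms2, Glt1d1, Tmem117, Dnase1l2, Sstr1, Hjurp and Cdc42bpg. An unadjusted p under 0.05 was found for 822 genes, 541 higher and 281 lower. The groups of all 51 genes did not overlap, a pattern that 17.5% of all tested genes showed with the knockout above and 20.6% with the knockout below. The count depended on single arrays. It was 7 without the first and 3 without the second wild-type array, and 7 without the first and 24 without the second knockout array. It was 132 without either knockout DSS array, which alter only the estimate of the spread. Sgms2, Glt1d1 and Hddc3 passed with each of the 8 arrays left out in turn, and the other 48 genes each lost the call at least once; all 51 kept their direction.

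**Figure D1:**
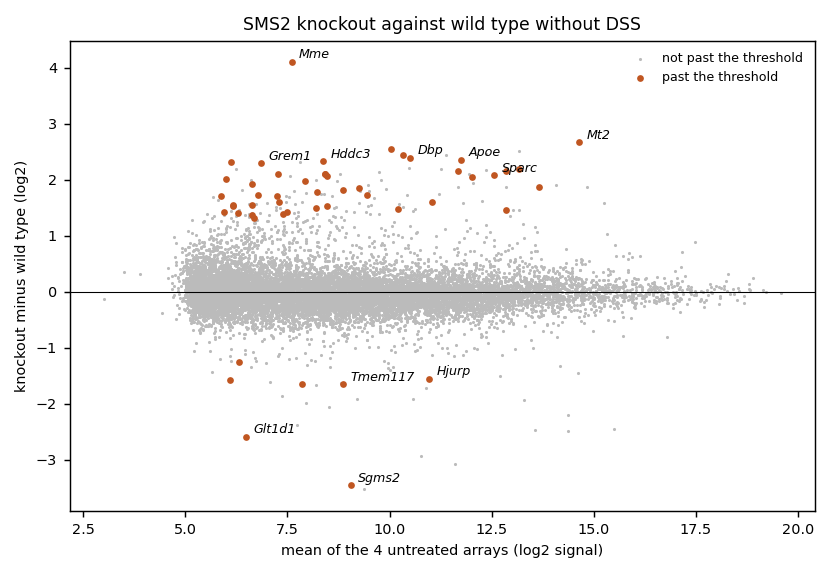
Each point is 1 of the 13003 tested genes, with its mean log2 signal over the 4 untreated arrays on the horizontal axis and the log2 difference, knockout minus wild type, on the vertical axis; the 51 genes past the threshold are orange. Mme stands highest at 4.10 and Sgms2 lowest among the orange points at -3.46, while grey points at similar distances from 0 are genes whose replicates lay far apart.

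Mme, which encodes neprilysin, a membrane peptidase of brush borders and of some stromal cells, had the largest difference. Its signals were 5.91 and 5.20 in wild type, under background, and 10.57 and 8.76 in the knockout, at least 11.5-fold higher (adjusted p = 0.00653). The knockout signals had an SD of 1.28, but both were far above both wild-type arrays. The call was lost without the second wild-type array (adjusted p = 0.0996) and held with each of the other 7 arrays left out in turn. Amn, whose product amnionless anchors the vitamin B12 receptor in the brush border, was 6.63 and 6.35 in wild type and 7.81 and 8.37 in the knockout, a rise of 1.60 ± 0.29 (adjusted p = 0.0493). These were 2 of 13 tested brush border genes (15.4% against 0.338% of all genes), a list whose median was 0.06 and whose lowest members, at least 1 log2 unit lower without passing, were Mep1a (-2.46, adjusted p = 0.818) and Enpep (-1.14, adjusted p = 0.307). The meprin gene Mep1b and the maltase gene Mgam had differences of 0.03 and 0.01. Mep1a was 14.83 and 14.77 in wild type but 15.08 and 9.60 in the knockout, so that 1 knockout array alone was low.

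Aqp8, the water channel of surface colonocytes, rose by 2.06 ± 0.33 (adjusted p = 0.0292). Its signals were 10.57 and 11.42 in wild type and 12.71 and 13.39 in the knockout, with no overlap. It was the only gene to pass among 24 tested genes of absorptive colonocytes (4.17% against 0.338% of all genes), whose median was 0.12. It was also the only one among 21 genes of ion and water transport (4.76%), whose median was 0.00. Slc26a3, the main chloride exchanger of the colon, had 15.17 and 15.28 in wild type and 15.90 and 15.81 in the knockout (difference 0.63 ± 0.32, adjusted p = 0.876). Car1, Ceacam1 and Atp1b1 were at -0.01, -0.03 and -0.13.

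Mt2 and Mt1 encode the metallothioneins made in most tissues, small cysteine-rich proteins that bind zinc and copper. They are induced through the metal-sensing factor MTF1, which binds metal response elements with the core TGCNCNC, and also by glucocorticoids. Mt2 was 13.66 and 12.95 in wild type and 16.55 and 15.40 in the knockout, a rise of 2.67 ± 0.41 (adjusted p = 0.0243) and a 6.36-fold higher signal. Mt1 was brighter, at 16.95 and 16.65 in wild type and 17.76 and 17.24 in the knockout, and its difference of 0.70 ± 0.25 did not pass (adjusted p = 0.481). Mtf1 was at -0.37 and the zinc exporter gene Slc30a1, another metal-responsive gene, at -0.35. Of 16 tested zinc transporters and sensors none passed, and 2 had an unadjusted p under 0.05 with limma (822 of 13003 over all genes). Of the 16, 8 lay lower on both knockout arrays with no overlap (20.6% of all genes did), and the median of the 16 was -0.23. The DSS arrays gave 1.53 for Mt2 and 0.58 for Mt1.

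The sequences just before both genes are shown with such cores marked. Whether the number of cores bears on the difference of either gene was not tested. They are the 250 bases before the RefSeq start of each gene on assembly GRCm38.p6, plus strand, at chr8:94172368-94172617 for Mt2 and chr8:94178839-94179088 for Mt1, so the genes are neighbours. Capitals mark TGCNCNC on either strand.
Mt2: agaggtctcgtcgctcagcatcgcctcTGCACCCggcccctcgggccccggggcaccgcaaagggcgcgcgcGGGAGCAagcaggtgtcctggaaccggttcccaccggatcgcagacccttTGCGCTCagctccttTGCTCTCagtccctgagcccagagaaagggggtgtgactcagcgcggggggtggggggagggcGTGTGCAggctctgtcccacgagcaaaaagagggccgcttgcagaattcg
Mt1: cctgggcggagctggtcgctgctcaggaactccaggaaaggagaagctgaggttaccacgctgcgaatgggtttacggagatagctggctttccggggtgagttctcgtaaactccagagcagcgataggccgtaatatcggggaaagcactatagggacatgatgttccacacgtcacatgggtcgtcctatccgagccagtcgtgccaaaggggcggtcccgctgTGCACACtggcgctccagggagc
Within these 250 bases Mt2 held 5 matches and Mt1 held 1. The windows depend on the annotated starts, and cores outside them were not counted, so the counts do not compare whole promoters. The core is short and loosely defined, and 44.4% of 32851 mouse promoter windows of this length held at least 1 match on either strand.

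Dbp, a transcription factor gene that is a direct output of the circadian clock, was 9.62 and 8.995 in wild type and 11.86 and 11.54 in the knockout. It rose by 2.40 ± 0.29 (adjusted p = 0.00800), a 5.26-fold higher signal. In the clock, ARNTL pairs with CLOCK or NPAS2 to switch on Dbp, the period and cryptochrome genes and Nr1d1 and Nr1d2, whose products in turn repress Arntl. Dbp was the only one of 20 tested clock genes to pass (5% against 0.338% of all genes). Of the 20, 7 had an unadjusted p under 0.05 with limma (822 of 13003 over all genes). Arntl was 11.996 and 11.81 in wild type and 10.97 and 10.83 in the knockout, a difference of -0.999 ± 0.25 (adjusted p = 0.154). Clock (-0.44) and Npas2 (-0.52) also lay lower on both knockout arrays (20.6% of all genes did). Rora, the fourth tested activator, went the other way, from 5.19 and 5.50 in wild type, under background, to 6.56 and 6.21 in the knockout (1.04 ± 0.41, adjusted p = 0.608). Nr1d1 was 12.60 and 12.04 in wild type and 13.03 and 12.99 in the knockout, a difference of 0.69 ± 0.27 (adjusted p = 0.577). Nr1d2 also had 0.69, while Cry1 and Nfil3 had -0.79 and -0.82. The period genes Per1, Per2 and Per3 had 0.31, 0.07 and 0.09. The list's median was 0.08. The labels do not give the hour at which the mice were killed. In the DSS arrays the difference was 0.82 for Dbp, -1.06 for Arntl and -0.36 for Nr1d1.

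**Figure D2:**
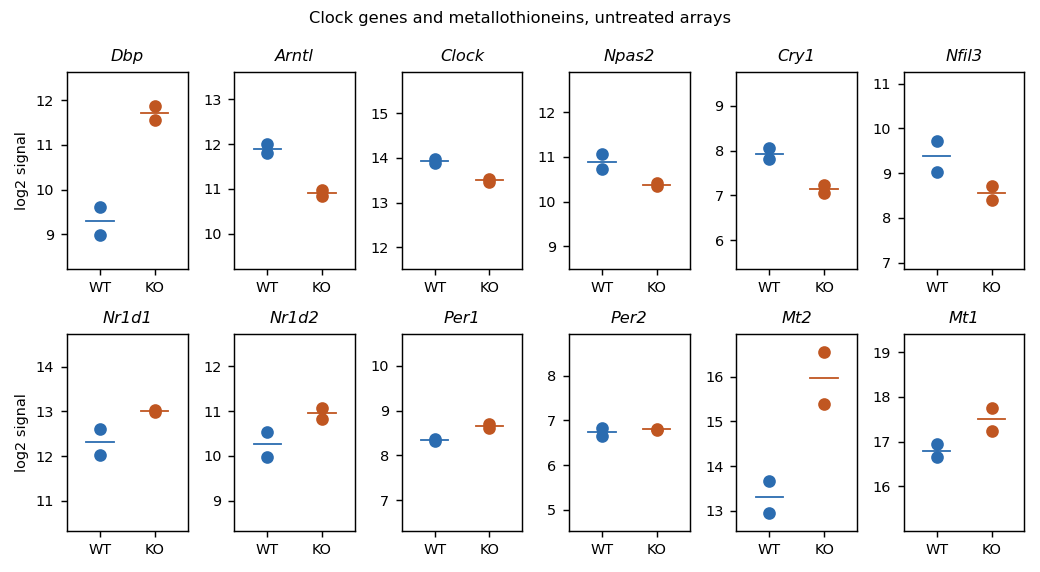
Log2 signal of 10 clock genes and the metallothionein genes Mt2 and Mt1 on the 4 untreated arrays, 1 point per array (blue, wild type; orange, knockout), with a line at each group's mean; each panel has its own axis range. Dbp and Mt2 show the widest gaps between genotypes, Arntl lies lower in the knockout, and the points of Per2 overlap.

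A few genes that carry or take up lipid rose, while no gene of cholesterol synthesis passed. Apoe, the apolipoprotein of macrophages and other cells that clears lipoproteins, was 10.76 and 10.40 in wild type and 13.09 and 12.77 in the knockout, a rise of 2.36 ± 0.26 (adjusted p = 0.00634). The fatty acid receptor gene Cd36 was under background in wild type (5.10 and 4.86) and 7.41 and 6.58 in the knockout, at least 1.81-fold higher (adjusted p = 0.0368). The phospholipid transfer protein gene Pltp was also under background in wild type (5.36 and 5.79) and 6.97 and 7.02 in the knockout, at least 1.81-fold higher (adjusted p = 0.0328). Fabp4, the fatty acid carrier of adipocytes, capillaries and macrophages, was 7.34 and 7.32 in wild type and 9.67 and 8.58 in the knockout, a rise of 1.79 ± 0.31 (adjusted p = 0.0373). Apoe, Cd36 and Pltp were 3 of 9 tested apolipoproteins and carriers (33.3% against 0.338% of all genes). Cd36, Pltp and Fabp4 are also genes of vessels and macrophages. The mean of the blood endothelial list was 5.99 and 5.97 in wild type and 6.83 and 6.66 in the knockout, and that of the macrophage and dendritic cell list 6.00 and 6.22 against 6.90 and 6.65. Their part in these results was not tested.

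All 14 tested cholesterol synthesis genes had differences under 0, from -0.67 to -0.03, with a median of -0.41. In 12 of the 14 both knockout arrays lay under both wild-type arrays (20.6% of all genes did). None passed with limma, and 3 had an unadjusted p under 0.05 (822 of 13003 over all genes). Mvk, the mevalonate kinase gene, had 8.38 and 8.38 in wild type and 7.44 and 7.98 in the knockout (-0.67 ± 0.25, adjusted p = 0.543). Sqle, the squalene epoxidase gene, had 10.30 and 10.47 against 9.83 and 9.71 (-0.62 ± 0.22, adjusted p = 0.504). Hmgcs1, Cyp51 and Srebf2, the gene of the factor that drives the pathway, were at -0.52, -0.57 and -0.36. With DSS the median of the same genes was 0.37, on the other side of 0.

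Fibroblast and matrix genes were the largest group among the higher genes. Of 21 tested, 5 rose and none fell (23.8% against 0.338%), and 18 had an unadjusted p under 0.05 with limma (822 of 13003 over all genes). In 20 of the 21 both knockout arrays lay above both wild-type arrays (17.5% of all genes did). The median difference of the list was 1.52. Sparc, a collagen-binding matrix protein gene, was 11.32 and 11.74 in wild type and 13.80 and 13.42 in the knockout, a rise of 2.08 ± 0.26 (adjusted p = 0.0100). Igfbp7, a secreted protein gene of vessels and stroma, was 11.95 and 12.20 against 14.29 and 14.23, a rise of 2.19 ± 0.30 (adjusted p = 0.0142). Dcn, the collagen-binding proteoglycan decorin gene, was 11.38 and 12.17 against 14.13 and 13.75, a rise of 2.17 ± 0.36 (adjusted p = 0.0328). Vim and Serping1, the genes of vimentin and of the C1 complement inhibitor, rose by 1.60 and 1.53. Col3a1 (2.11), Fn1 (2.31) and Lum (1.61) lay higher on both knockout arrays and did not pass. The mean of the list was 8.30 and 8.72 in wild type and 9.99 and 9.71 in the knockout. In RNA of a bulk preparation, more cells of a type and more RNA per cell cannot be told apart.

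Further matrix and stromal genes outside that list also passed. Grem1, a BMP antagonist made by fibroblasts and muscle cells beneath the crypts, was under background in wild type (5.38 and 6.04) and 8.16 and 7.84 in the knockout, at least 3.65-fold higher (adjusted p = 0.0335). It was the only 1 of 13 tested subepithelial signalling genes to pass (7.69% against 0.338% of all genes). In 6 of the 13 the knockout lay above with no overlap (17.5% of all genes), and the median was 0.2. Of the 13, 5 were over background on no untreated array. The metalloproteinase inhibitor gene Timp2 rose from 8.43 and 8.21 to 10.27 and 10.09, by 1.86 ± 0.27 (adjusted p = 0.0176). Under background in wild type were also the elastic fibre gene Fbln5, at least 1.75-fold higher in the knockout, and the heparan sulfatase gene Sulf1, at least 2.30-fold higher. Sgce, a dystrophin complex gene, rose from background by at least 1.51-fold. Gpx3, the secreted glutathione peroxidase gene, rose by 1.82 ± 0.30 (adjusted p = 0.0326).

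Smooth muscle genes showed similar sizes with fewer calls. Of 20 tested, Pln alone passed (5% against 0.338% of all genes), and 18 had an unadjusted p under 0.05 (822 of 13003 over all genes). In 19 both knockout arrays lay above both wild-type arrays (17.5% of all genes did), and the median difference was 1.65. Pln, the gene of phospholamban, which restrains the calcium pump of the sarcoplasmic reticulum, was under background in wild type (5.67 and 5.66) and 7.48 and 7.71 in the knockout, at least 2.75-fold higher (adjusted p = 0.0299). The contractile genes were bright and varied more between the replicates. Tagln was 11.45 and 12.37 in wild type and 14.18 and 14.66 in the knockout (2.51 ± 0.68, adjusted p = 0.218). Des was 10.44 and 11.81 against 13.39 and 13.77 (2.46 ± 0.66, adjusted p = 0.218). Myh11, Mylk, Myl9 and Actg2 were at 2.20, 2.21, 2.17 and 1.87, and Acta2 at 1.58. Flna, an actin crosslinker gene outside the list, was at 2.44. The mean of the list was 9.83 and 10.54 in wild type and 11.69 and 11.92 in the knockout. Hspb8 and Fxyd1, the genes of a small heat shock protein and of a regulator of the sodium pump that are both rich in muscle, were under background in wild type and at least 2.84-fold and 1.75-fold higher in the knockout. Cacnb2, a calcium channel subunit gene, rose by 1.43 ± 0.25 (adjusted p = 0.0415).

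Vessel genes were higher as well. Plvap, which forms the diaphragms of fenestrated capillaries, was 7.39 and 7.50 in wild type and 8.98 and 8.90 in the knockout, a rise of 1.49 ± 0.22 (adjusted p = 0.0176). It was the only 1 of 14 tested blood endothelial genes to pass (7.14% against 0.338% of all genes). In 12 of the 14 the knockout lay above with no overlap (17.5% of all genes), and the median was 0.78. Cdh5, Pecam1 and Cd34 had differences of 1.57, 1.02 and 1.32 that did not pass. Of 5 tested pericyte genes 2 passed (40% against 0.338%) and 4 lay above with no overlap (17.5% of all genes). Rgs5 was 10.20 and 10.97 in wild type and 12.58 and 12.92 in the knockout, a rise of 2.17 ± 0.35 (adjusted p = 0.0292), and Mcam rose from background by at least 2.41-fold (adjusted p = 0.0286). Pdgfrb, the receptor gene that also marks these cells, was at 0.05. Ly6c1, a surface protein gene of endothelium and some leukocytes, was 9.55 and 9.36 in wild type and 11.01 and 10.86 in the knockout, a rise of 1.48 ± 0.23 (adjusted p = 0.0282). Slc43a3 and Ehd2, both well expressed in endothelium, rose by 1.99 and 2.08.

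Among 7 tested lymphatic genes, Ccl21b was called (14.3% against 0.338%) and 6 lay above with no overlap (17.5% of all genes); the median was 1.19. Ccl21b, a chemokine gene of lymphatic endothelium that draws dendritic cells and T cells, was 7.19 and 7.55 in wild type and 9.73 and 9.23 in the knockout, a rise of 2.11 ± 0.34 (adjusted p = 0.0292). Ccl21c had the same values on every array, so the array does not separate them. The 2 predicted genes among the 44 also passed and lie near Ccl21b in annotation order. Near-identical copies of the chemokine make up this locus, so these 4 calls cannot be counted as separate measurements. Ccl21a (1.71, adjusted p = 0.0557) and Lyve1 (1.27, adjusted p = 0.135) did not pass.

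Few genes of nerves and immune cells passed, and many of their markers were dim. Of 12 tested genes of enteric neurons and glia none passed, and 5 had an unadjusted p under 0.05 with limma (822 of 13003 over all genes). Of these 12, 9 lay above with no overlap (17.5% of all genes), and the median was 0.67. Stmn2 had the smallest p (1.60 ± 0.32, adjusted p = 0.0676). Gfra2, a receptor gene for the nerve growth factor neurturin, rose from background by at least 1.44-fold. Of 11 tested macrophage and dendritic cell genes 1 passed (9.09% against 0.338%) and 6 lay above with no overlap (17.5% of all genes), with a median of 0.62. It was Ly6c2, which was 6.00 and 6.81 in wild type and 8.02 and 8.20 in the knockout (1.70 ± 0.28, adjusted p = 0.0292). Ly6c2 is the neighbour of Ly6c1 in annotation order. Whether the array separates them was not tested, so these calls may not be separate measurements. Lyz2, the lysozyme gene of macrophages, had 7.30 and 7.08 against 9.26 and 9.10 (1.99 ± 0.42, adjusted p = 0.100), while C1qb and C1qc were under background on all 4 arrays. None of 9 tested T and NK cell genes passed, none had an unadjusted p under 0.05, and their median was 0.01. Of 10 tested exocrine pancreas genes none passed, 1 had an unadjusted p under 0.05, and 8 were over background on no untreated array. On the DSS arrays the first wild-type array stood apart with a list mean of 12.26 against 6.67 on its replicate, and the knockout arrays had 7.78 and 6.68. Without that first wild-type DSS array 45 genes passed in the untreated comparison, 41 of them among the 51.

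**Figure D3:**
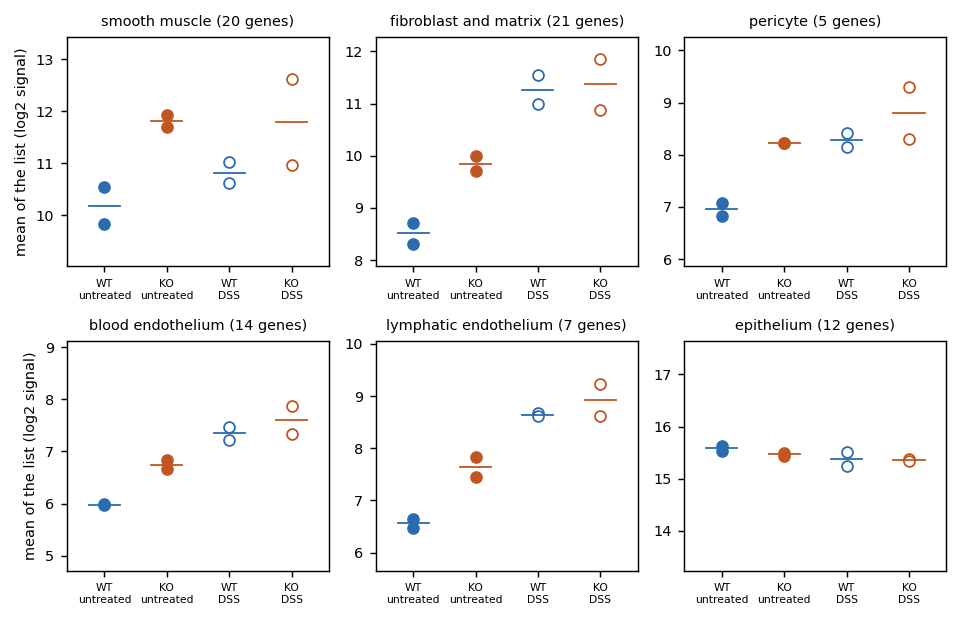
Mean log2 signal of the tested genes of 6 cell type lists on each of the 8 arrays (filled, untreated; open, DSS; blue, wild type; orange, knockout), with a line at each group's mean; each panel spans the same number of log2 units. On the untreated arrays the smooth muscle mean runs from 9.83 and 10.54 in wild type to 11.69 and 11.92 in the knockout, while the epithelial mean stays between 15.43 and 15.63.

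When the mean of the smooth muscle list on each array was added to the model, Sgms2 was the only gene to pass. With the mean of the fibroblast list 1 gene passed, which was none of the 51. Of the 51 differences, 11 moved by over 1.5 times with the smooth muscle mean and 21 with the fibroblast mean, and 28 moved so far in neither fit. Those that moved included Dcn (1.02 with the fibroblast mean), Grem1 (1.04 with the smooth muscle mean) and the epithelial gene Dnase1l2 (-0.92 with the smooth muscle mean and -0.83 with the fibroblast mean). Those that did not included the vessel genes Plvap, Mcam and Ly6c1 and the muscle gene Hspb8 as well as Mme, Mt2, Dbp and Aqp8. These list means were taken from the same arrays and rose with the knockout, so adding them also removes information on genotype.

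Among epithelial cell types other than the colonocyte genes above, no tested gene passed for goblet cells (13 tested), enteroendocrine cells (13) or stem cells and WNT targets (13). An unadjusted p under 0.05 with limma was found for 0, 2 and 0 of them (822 of 13003 over all genes), and the medians were -0.05, 0.15 and -0.09. Muc2, the main mucin of goblet cells, was 18.15 and 18.15 in wild type and 18.25 and 18.41 in the knockout. Ang4, an antimicrobial ribonuclease gene, varied from 10.94 to 12.88 in wild type and from 13.35 to 14.22 in the knockout, and its difference of 1.87 ± 1.50 did not pass (adjusted p = 0.999). Of 29 tested proliferation genes, Hjurp was the only one to pass, and it was lower (0.0538% of all genes passed as lower). Mki67 and Pcna were at 0.29 and -0.01, and the median of the list was -0.01.

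**Figure D4:**
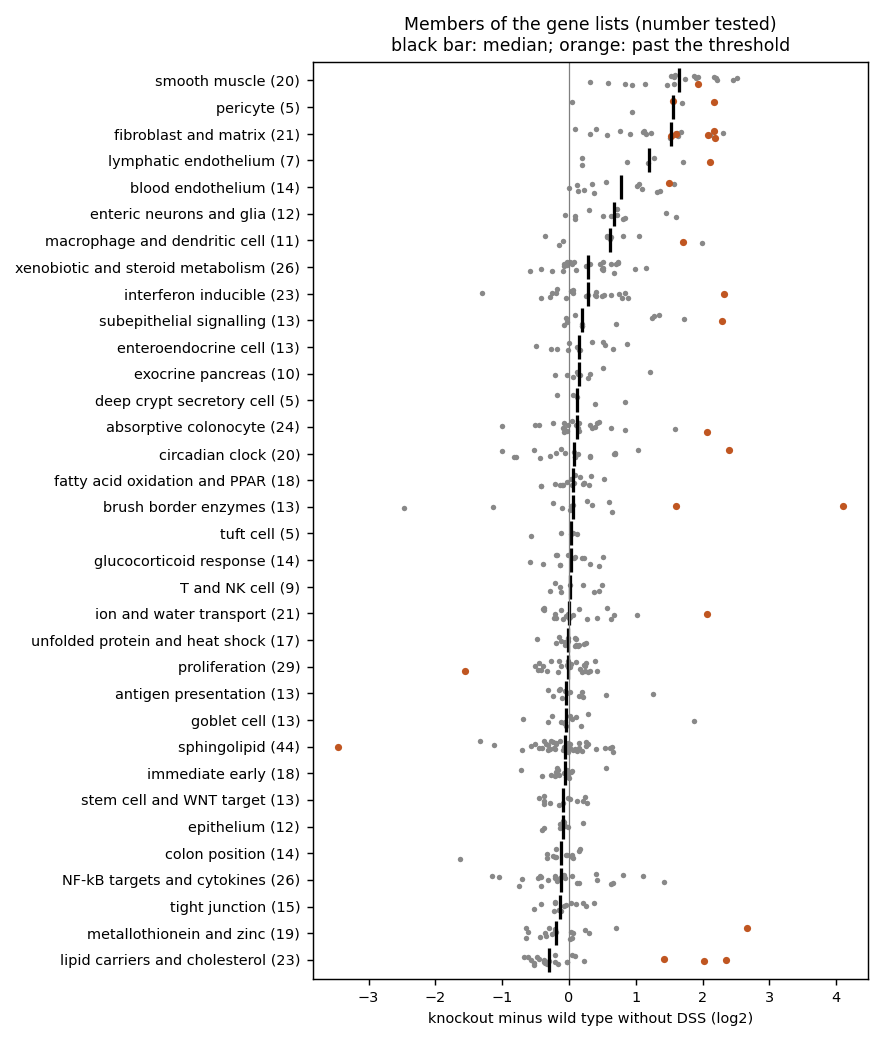
Log2 difference, knockout minus wild type without DSS, of each tested gene in the lists with at least 5 tested members (number in brackets); black bars are medians and orange points passed the threshold. The medians of the muscle, pericyte and fibroblast lists lie between 1.52 and 1.65, and that of the lipid list, which holds the cholesterol synthesis genes, lies lowest at -0.30.

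The lower genes were few and unlike each other. Glt1d1, which encodes a glycosyltransferase domain protein, was 8.02 and 7.56 in wild type and under background in the knockout (5.22 and 5.19), at least 3.09-fold lower (adjusted p = 0.00168). Tmem117, a membrane protein gene, was 9.82 and 9.55 against 8.33 and 7.75 and fell by 1.65 on the log2 scale (adjusted p = 0.0292). Hjurp, the chaperone of the centromere histone, was 11.72 and 11.79 against 10.22 and 10.18 (-1.56 ± 0.21, adjusted p = 0.0142). Dnase1l2, a DNase gene of differentiated epithelia, was 8.60 and 8.74 against 7.12 and 6.93 (-1.64 ± 0.30, adjusted p = 0.0493). The somatostatin receptor gene Sstr1 and the kinase gene Cdc42bpg were close to background in wild type and under it in the knockout, at least 1.65-fold and at least 1.72-fold lower.

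Some higher genes belong to none of these groups. Hddc3, which encodes a hydrolase of the bacterial alarmone ppGpp, was 7.20 and 7.21 in wild type and 9.62 and 9.45 in the knockout, a rise of 2.33 ± 0.22 (adjusted p = 0.00168). Zfp605, a zinc finger gene, was 6.41 and 6.02 against 7.91 and 8.73, a rise of 2.11 ± 0.31 (adjusted p = 0.0203). Serpina1a, an antitrypsin gene with near-identical copies that the array may not separate, rose from background by at least 2.26-fold (adjusted p = 0.0292). Ifi211, an interferon-inducible DNA sensor gene, was 5.10 and 4.80 in wild type, under background, and 7.37 and 7.18 in the knockout, at least 2.20-fold higher (adjusted p = 0.00985). It was the only one of 23 tested interferon genes to pass (4.35% against 0.338% of all genes), and their median was 0.29. Ifit3, Usp18 and Irf7 were at 0.84, 0.88 and 0.40, and Bst2 at -1.30. Pyroxd2, an oxidoreductase gene, rose by 1.73 and Gng2, a G protein subunit gene, by 1.39.

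Srp54b, a copy of the signal recognition particle gene Srp54, and Fam177a2, its neighbour in annotation order, rose together. Srp54b was 12.09 and 12.15 in wild type and 13.84 and 13.32 in the knockout (1.46 ± 0.26, adjusted p = 0.0415). Fam177a2 was 12.61 and 12.81 against 14.80 and 14.38 (1.88 ± 0.27, adjusted p = 0.0176). The copies Srp54a and Srp54c, looked up after these values were seen, were at 1.36 (adjusted p = 0.0570) and 1.19 (adjusted p = 0.135) in the same comparison. These genes are near-identical copies and may share probes. On the DSS arrays Fam177a2 was 14.63 and 14.06 in wild type and 14.58 and 14.32 in the knockout. The untreated wild-type arrays were thus the lowest of all arrays. DSS and the sex of the mice cannot be told apart in the step to the DSS arrays.

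No gene passed from the lists of antigen presentation, NF-kB targets and cytokines, tight junctions, fatty acid oxidation, glucocorticoid response, immediate early genes, heat shock and unfolded protein response, or xenobiotic and steroid metabolism. Unadjusted p-values under 0.05 were found for 1 of 13, 4 of 26, 0 of 15, 0 of 18, 0 of 14, 0 of 18, 0 of 17 and 5 of 26 of their tested members with limma. Over all genes the count was 822 of 13003. The B cell chemokine gene Cxcl13 was 8.57 and 8.29 in wild type and 9.63 and 10.08 in the knockout (1.43 ± 0.28, adjusted p = 0.0585). Tnf was 8.73 and 6.94 in wild type and 6.45 and 6.92 in the knockout, so its difference of -1.15 rested on 1 wild-type array. Cyp2d26 (1.16) and Gsta4 (0.98), detoxification genes, lay higher on both knockout arrays (17.5% of all genes did) without passing. Fabp6, the bile acid carrier of the ileum and proximal colon, was 9.86 and 9.42 in wild type and 7.50 and 8.51 in the knockout (-1.64 ± 0.39, adjusted p = 0.140).

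No gene lying near Sgms2 in the genome passed without DSS. Among the 50 nearest tested genes, 25 on each side in annotation order, the differences ran from -1.14 (Enpep, a peptidase gene) to 1.52 (Synpo2, a muscle gene), with a median of -0.14. In 13 the knockout arrays lay above with no overlap (17.5% of all genes) and in 17 below (20.6% of all genes). Tifa, an adaptor gene of NF-kB signalling 14 places away, had 11.40 and 11.004 in wild type and 9.85 and 10.46 in the knockout (-1.04 ± 0.27, adjusted p = 0.180). With DSS the difference of Tifa was -2.39 and passed (adjusted p = 0.00171).

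Large differences with wide spread were left among the genes that did not pass. A difference of at least 1 was found for 246 genes on the higher side (1.89%) and 74 on the lower side (0.569%). Of these, 199 and 64 had groups with no overlap and did not pass. Nxpe4 was 11.40 and 10.85 in wild type and 5.28 and 9.93 in the knockout, and St3gal4, a sialyltransferase gene, was 12.79 and 13.49 against 7.88 and 12.25. Apol10a (11.92 and 12.55 against 11.73 and 6.89) and Btnl1 (11.66 and 11.42 against 11.22 and 8.04) were also low on 1 untreated knockout array only. With DSS the differences of Apol10a and Btnl1 were -3.20 and -1.95, and neither passed. Mtmr7, a phosphoinositide phosphatase gene, differed from these genes in that both untreated knockout arrays were low: 8.18 and 8.42 against 6.16 and 6.71 (-1.87 ± 0.36, adjusted p = 0.0606).

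The genotype difference of the same genes was then read within the DSS arrays. These arrays add nothing to the untreated differences themselves, but they share the fit's estimate of the spread, so they bear on which genes passed. Of the 51 genes, 5 also passed there, against 46 of all tested genes (0.354%): Sgms2 (-4.18), Glt1d1 (-2.59), Hddc3 (2.38), Zfp605 (1.99) and Serpina1a (1.42). Hddc3 was 7.04 and 6.87 in wild type and 9.23 and 9.45 in the knockout with DSS, close to its untreated values. The number was 3 without the first wild-type or the first knockout DSS array, and 7 without the second knockout DSS array. The difference was smaller with DSS in 42 of the 44 higher genes and in 5 of the 7 lower ones; since genes were chosen for a large untreated difference, a smaller second value is partly built in. The median over the 44 was 1.87 without DSS and 0.34 with it. In 40 of the 44, both untreated wild-type arrays were the lowest of all 8 arrays, which was so for 6.42% of all tested genes and for 36.7% of the genes with the knockout above. In 5 of the 7 lower genes both untreated wild-type arrays were the highest of all 8 (5.75% of all tested genes). Dcn was 15.89 and 16.95 in wild type and 16.03 and 15.74 in the knockout with DSS, all above the untreated knockout arrays. Sparc, Igfbp7, Timp2, Slc43a3 and Plvap had the same order. DSS and the sex of the mice cannot be told apart where untreated and DSS arrays are set side by side.

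The change of the genotype difference from untreated to DSS arrays passed for 1 of the 51 genes (10 of all tested genes, 0.0769%). DSS and the sex of the mice cannot be told apart in this change. Of the 51, 41 had an unadjusted p under 0.05 for it with limma. That count is partly built in, since the genes were chosen for a large untreated difference, which the change subtracts. The gene that passed was Mme, with 7.21 and 6.76 in wild type and 6.38 and 6.55 in the knockout under DSS, a difference of -0.52. The change from 4.10 to -0.52 was -4.62 (interaction, adjusted p = 0.0324). The number of the 51 genes past the threshold for this change was 0 without either untreated wild-type array, without the first wild-type DSS array and without the second knockout DSS array. It was 2 without the second untreated knockout array and without the first knockout DSS array.

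**Figure D5:**
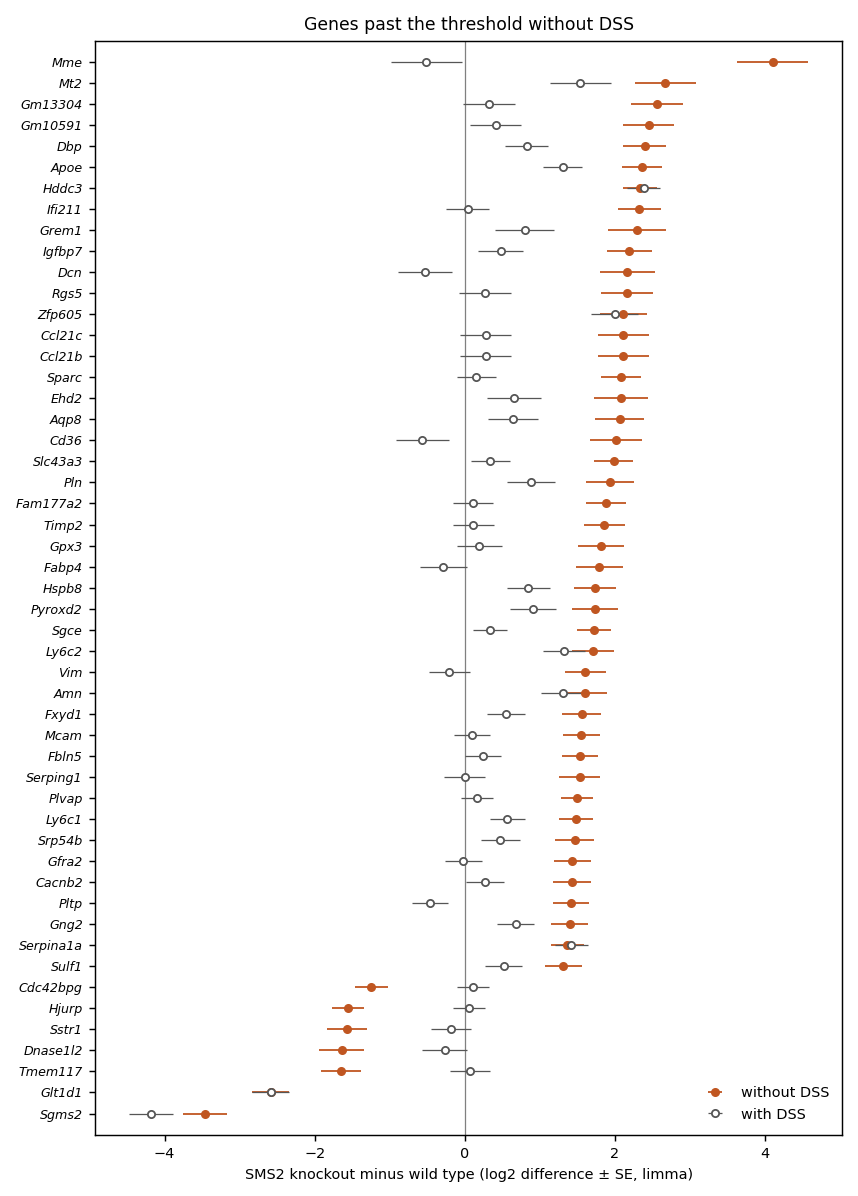
Log2 difference ± SE (limma), knockout minus wild type, of the 51 genes past the threshold without DSS (orange) and of the same genes with DSS (open grey), ordered by the untreated difference. Hddc3, Zfp605, Serpina1a, Glt1d1 and Sgms2 have like values in both treatments, whereas most higher genes lie nearer 0 with DSS and Mme falls to -0.52.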

How the data were processed

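Expression was measured on 8 Affymetrix arrays. The authors deposited log2 values made with Affymetrix Expression Console, per the submitters' processing notes; its version, normalization and background correction: not given in the sources used here. Per the labels' protocols, column-purified total RNA was turned into labelled single-stranded DNA. The log2 values were used as deposited. Of 28846 rows, 6640 were controls and 2634 had no gene symbol. The row of highest mean was kept for each of 55 genes with several rows, and the lowest 33.3% of genes by mean (below 5.15) were left out. A 4-group model was fitted with limma 3.58.1 in R 4.3.3 to all 8 arrays (residual degrees of freedom 4, prior 7.27), two-sided, with a threshold of 0.05. The number of arrays limits the precision.

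The comparison and the gene lists were chosen with earlier results of these data known. Lists are described by counts and medians, without a test. Named were the genes past the threshold (predicted genes by count), the sphingomyelin synthase genes, up to 10 genes per direction that did not pass but differed by at least 1 without overlap, and fixed numbers of members per list. Where all arrays of a group lay under background, the fold is a lower bound against the mean background of that group's arrays. On simulated data with 13003 genes for this comparison, 41.2% of changes of size 1 and 98.9% of size 2 were recovered, and 7.5% of calls were false. The simulated noise was drawn independently for each gene and array, so these rates do not cover variation that genes share. The fit was repeated under 19 other settings. Promoter windows came from RefSeq (GRCm38.p6) and were searched with Python 3.11.15. A planned comparison of protein sequences was not run. Replicate numbers were not treated as pairs in the main fit, and the labels state no pairing.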

Additional observations from a re-analysis of the deposited data

Results flagged for a closer look

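The genotype difference of Mme differed between the untreated and the DSS arrays, by a test of the change itself. DSS and the sex of the mice cannot be told apart in this change. Mme was 5.91 and 5.20 in untreated wild type and 10.57 and 8.76 in the untreated knockout, and 7.21 and 6.76 in wild type and 6.38 and 6.55 in the knockout with DSS. The interaction was -4.62 on the log2 scale (limma, adjusted p = 0.0324). All 4 DSS arrays lay between the untreated groups. No other of the 51 genes passed this test. Of the 51, 41 had an unadjusted p under 0.05 for it with limma. That count is partly built in, since the genes were chosen for a large untreated difference.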

How the results depend on the processing

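All 51 genes kept their direction under all 19 settings. With 1 array left out this was fixed in advance, since the groups of these genes did not overlap. The number of genes past the threshold was 26 after quantile normalization, 241 with array weights, 252 with the 4 untreated arrays alone, 1 with the smooth muscle mean and 1 with the fibroblast mean as a covariate, and 3 to 132 with 1 array left out. Of these, 20 were higher and 6 lower after quantile normalization, and 42 and 9 with array medians set equal, but 1 higher and 2 lower without the second untreated wild-type array and 3 and 4 without the first untreated knockout array. The single call was lower (Sgms2) with the smooth muscle mean and higher with the fibroblast mean, where it was none of the 51. With the fibroblast mean Sgms2 was at -4.02 (adjusted p = 0.0764). The number of the 51 genes past the threshold for the interaction, 1 in the report, was 0 after quantile normalization, with array weights and with either covariate, and 0 to 2 with 1 array left out. The number also past it with DSS, 5 in the report, was 3 with array weights and with the smooth muscle mean, and 3 to 7 with 1 array left out. With the replicate number as a block 48 genes passed, 44 of them among the 51. Same-numbered arrays deviated with r = 0.0655 between the untreated groups and -0.246 to 0.276 between the other groups. The labels state no pairing, and with 2 arrays per group these correlations do not settle whether the numbers pair the samples. The cause of the changes in these counts was not tested. Among single genes, 335 values lost and 162 gained their call under some setting. Reversals of direction were counted only for the 51 genes, and none was found.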
